A study of Rattus norvegicus with 6 samples.

Results

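The 40 genes described here are known to be switched on by interferon and were followed in rat retina after intravitreal injection. They were chosen by name, all of them were present among the 34335 genes of the count table, and 39 of them had 10 or more counts in at least 3 of the 6 libraries. The exception was Ifit1, with counts of 0, 0 and 0 in DMP 30, 31 and 33 and of 0, 4 and 0 in saline 30, 31 and 33. Low values in the table piled up at 4, so 1 sequenced fragment may stand for about 4 counts and a low count for few fragments. Each of the 39 also reached 10 counts in all 3 saline libraries, so none entered through the DMP group alone. In the DMP group, wild-type rats of the pigmented BN strain received 2 µL of DMP at 10 mg/mL in water, and in the saline group rats of the same strain and genotype received 2 µL of saline. Eyes of both groups were treated with levofloxacin gel after the puncture. DMP is named in the labels by this code and in the series title as a cationic micelle, a title that concerns suppression of choroidal neovascularization. The vehicles differed, so micelle and vehicle cannot be told apart. Age, sex, laser injury and the time from injection to collection are not given in the sources used. Each group had 3 libraries, numbered 30, 31 and 33 in both groups. No label says whether these came from separate animals, and p-values measure only the spread between them, which may be technical.

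Interferons are secreted proteins that warn cells of virus or of misplaced nucleic acid. Type I interferon acts through a receptor whose kinases lead to the assembly of ISGF3, a complex with Stat2 and Irf9 that binds the interferon-stimulated response element (ISRE). Type II interferon acts through factors that bind the gamma-activated site (GAS). In the retina, microglia, Müller glia, pigment epithelium and neurons can all switch on such genes, whose products bind viral RNA, stop translation, trap virus particles and feed back on the pathway.

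Promoters are shown because levels of the members varied together between libraries. RefSeq promoter windows (GRCr8, 250 bases before to 50 after the annotated start, written on the strand of the gene) were found by symbol for 31 of the 39 members, and those of Adar, Dhx58, Ifit2, Isg15, Mx2, Oas2, Usp18 and Zbp1 were not used here. The core of the ISRE was searched as GAAA, any 2 bases and GAAA on either strand, and that of the GAS as TTC, any 3 bases and GAA, which reads the same on both strands. The ISRE core lay in 21 of 31 member windows (67.7%) and in 1312 of 33469 windows of all genes (3.92%). The GAS core lay in 9 of 31 member windows (29.0%) and in 2970 of all windows (8.87%). These shares describe the windows, were not tested, and a match is not shown to be bound. The 6 windows below belong to the members of smallest p that held the ISRE core, which is in capitals, and 2 overlapping matches run together in that of Oas1b.
Rsad2, chr6:48788071-48788370, minus strand: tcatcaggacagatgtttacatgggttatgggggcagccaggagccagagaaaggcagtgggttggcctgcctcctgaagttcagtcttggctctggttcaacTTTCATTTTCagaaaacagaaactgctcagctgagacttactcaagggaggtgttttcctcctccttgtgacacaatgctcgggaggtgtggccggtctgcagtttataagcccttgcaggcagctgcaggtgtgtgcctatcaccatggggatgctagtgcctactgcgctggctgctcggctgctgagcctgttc
Ifit3, chr1:241527076-241527375, plus strand: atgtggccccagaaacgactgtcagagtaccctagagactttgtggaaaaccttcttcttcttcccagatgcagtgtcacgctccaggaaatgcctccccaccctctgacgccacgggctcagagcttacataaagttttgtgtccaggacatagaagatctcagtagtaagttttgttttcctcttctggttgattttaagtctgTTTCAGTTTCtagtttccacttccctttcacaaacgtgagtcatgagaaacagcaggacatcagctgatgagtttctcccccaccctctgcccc
Oas1b, chr12:41395803-41396102, minus strand: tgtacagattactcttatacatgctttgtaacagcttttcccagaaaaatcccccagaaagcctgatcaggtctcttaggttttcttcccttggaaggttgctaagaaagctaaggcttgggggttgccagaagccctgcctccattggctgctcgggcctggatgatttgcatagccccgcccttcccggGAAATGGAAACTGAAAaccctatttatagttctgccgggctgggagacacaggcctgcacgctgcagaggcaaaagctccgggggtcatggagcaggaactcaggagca
Oasl2, chr12:47383136-47383435, minus strand: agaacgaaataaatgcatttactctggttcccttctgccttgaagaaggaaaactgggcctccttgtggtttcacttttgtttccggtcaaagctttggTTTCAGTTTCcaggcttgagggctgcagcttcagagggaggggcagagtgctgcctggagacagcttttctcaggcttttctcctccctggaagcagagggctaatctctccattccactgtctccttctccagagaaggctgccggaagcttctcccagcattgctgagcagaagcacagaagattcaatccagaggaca
Irf7, chr1:205799974-205800273, minus strand: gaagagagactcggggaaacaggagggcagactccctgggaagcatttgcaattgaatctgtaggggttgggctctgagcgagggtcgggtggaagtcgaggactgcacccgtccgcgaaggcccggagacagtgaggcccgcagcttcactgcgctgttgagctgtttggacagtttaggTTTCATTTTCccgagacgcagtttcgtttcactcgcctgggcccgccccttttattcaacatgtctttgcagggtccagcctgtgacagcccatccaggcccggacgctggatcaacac
Gbp2, chr2:234005477-234005776, plus strand: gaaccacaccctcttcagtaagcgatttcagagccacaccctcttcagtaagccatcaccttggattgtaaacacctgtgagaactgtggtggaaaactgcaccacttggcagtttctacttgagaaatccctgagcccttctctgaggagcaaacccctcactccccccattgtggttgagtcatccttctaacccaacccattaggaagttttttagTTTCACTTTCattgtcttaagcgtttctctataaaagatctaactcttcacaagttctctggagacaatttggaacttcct

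Both cores stood side by side in a few members. In 4 member windows, those of Irgm, Igtp, Parp14 and Ifitm3, an ISRE core and a GAS core started 11 bases apart without overlapping, and 6 of all 33469 windows had this spacing (0.0179%). The spacing was noticed in these windows and then counted in all of them. In Irgm, Igtp and Parp14 the GAS core came first and in Ifitm3 it came second. The stretches below show both cores in capitals with 10 bases on either side.
Igtp, chr10:42874923-42874963, plus strand: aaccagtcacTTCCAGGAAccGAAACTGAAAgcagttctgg
Irgm, chr10:33742593-33742633, minus strand: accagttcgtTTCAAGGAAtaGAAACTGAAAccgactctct
Parp14, chr11:78408037-78408077, plus strand: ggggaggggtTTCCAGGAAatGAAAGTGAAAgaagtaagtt
Ifitm3, chr1:205541773-205541812, minus strand: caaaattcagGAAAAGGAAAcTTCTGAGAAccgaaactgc
In Bst2 the cores overlapped, as they did in 14 of all windows (0.0418%). No ISRE core lay in the windows of Cmpk2, Herc6, Irf1, Irf9, Mx1, Oasl, Parp9, Sp100, Stat2 and Trim25. The median log2 fold change, DMP over saline, was 0.85 over the 21 members with the ISRE core and 0.26 over these 10 without it. This difference was not tested, and both medians include DMP 30. Without that library, log2 fold changes ran from -0.12 (Ifitm3) to 1.07 (Rsad2) in members with the core. In members without the core they ran from -0.02 (Oasl) to 0.78 (Mx1). The middle value in that fit was 0.27 (Ifih1) with the core, and the middle values were 0.16 (Trim25) and 0.16 (Irf1) without it. The sets thus lay closer together without DMP 30.

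**Figure D1:**
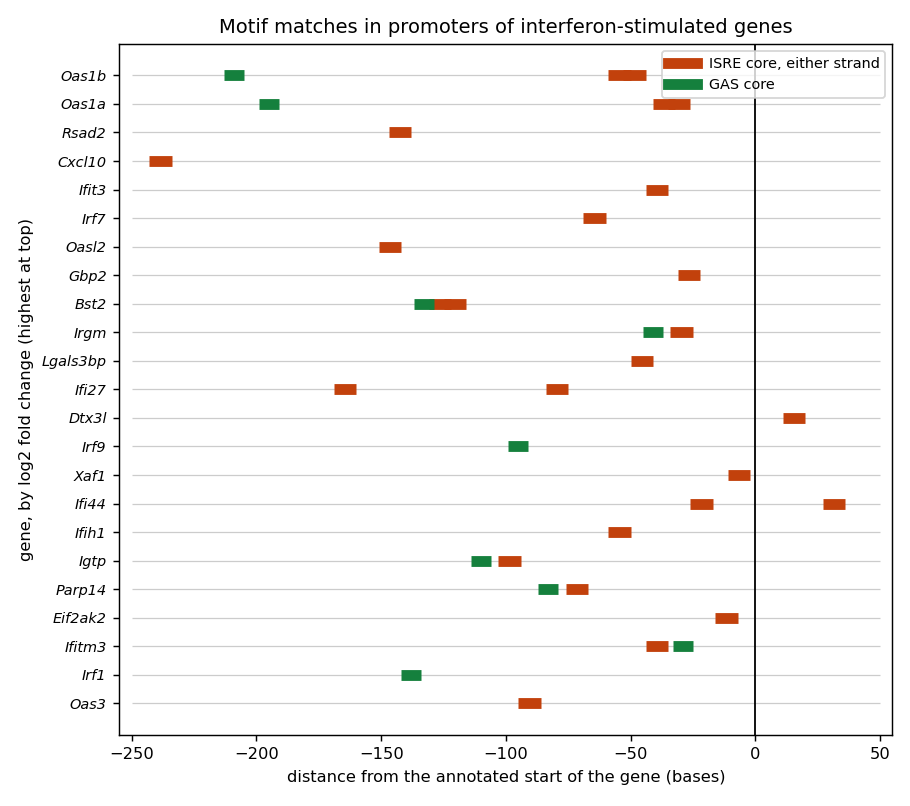
Each row is a promoter window of a member that held a match, ordered by log2 fold change with the highest at the top. Bars mark matches by distance in bases from the annotated start, ISRE cores in orange and GAS cores in green. Of 26 ISRE matches, 21 sit within 150 bases before the start, and in Irgm, Igtp, Parp14 and Ifitm3 the cores of both kinds lie next to each other.

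Total counts were 47842234 to 52529314 in DMP and 50900221 to 53255925 in saline. Of the markers of the labelled tissue, the Müller glia enzyme Glul was at 1971, 1924 and 2001 CPM in DMP, against 2094, 2001 and 1999 CPM in saline. DMP 30 stood apart on the leading principal component of all genes, at 52.99 against -0.13 and 7.01 in the other DMP libraries and -23.4 to -17.9 in saline. Fold changes quoted for the members are therefore given with and without DMP 30. Rn18s, the 18S ribosomal RNA, also differed between groups, at 0.0439%, 0.118% and 0.159% of counts in DMP 30, 31 and 33, against 0.0121%, 0.0216% and 0.0338% in saline 30, 31 and 33. Its part in the results was not tested.

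Interferon-stimulated transcripts were most abundant in DMP 30, less so in DMP 31, and near the saline level in DMP 33. In CPM (counts scaled to a common library size by the TMM method) over the mean CPM of saline, the median of the 39 genes was 2.62 times in DMP 30, 1.41 in DMP 31 and 1.03 in DMP 33. In saline 30, 31 and 33 it was 0.847, 0.926 and 1.24 times. The median over all 18571 genes tested lay between 0.997 and 0.999 in every library. Of the 39 genes, 29 were at or above 2 times the saline mean in DMP 30, 9 in DMP 31 and 0 in DMP 33, while 2.18%, 1.605% and 1.48% of all genes were. DMP 30 was the highest of the 6 libraries for 36 of 39 genes, against 15.3% of all genes. The exceptions were Irf1 and Oas3, highest in DMP 33, and Cmpk2, highest in saline 33.

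The libraries of each group were also uneven among themselves. The order DMP 30, then 31, then 33 held for 32 of 39 genes, against 15.4% of all genes. In the saline group, saline 33 was the highest library for 32 of 39 genes, against 35.8% of all genes, and 26 genes were lower in DMP 33 than in saline 33. The coefficient of variation over the 3 libraries had a median of 53.03% in DMP and 23.6% in saline over the 39 genes, and of 7.75% in DMP and 8.88% in saline over all genes. It was larger in DMP for 34 of the 39 genes and for 44.3% of all genes. The shared numbers did not go together, since number 33 was lowest in DMP for 32 of the 39 genes and highest in saline for 32.

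**Figure D2:**
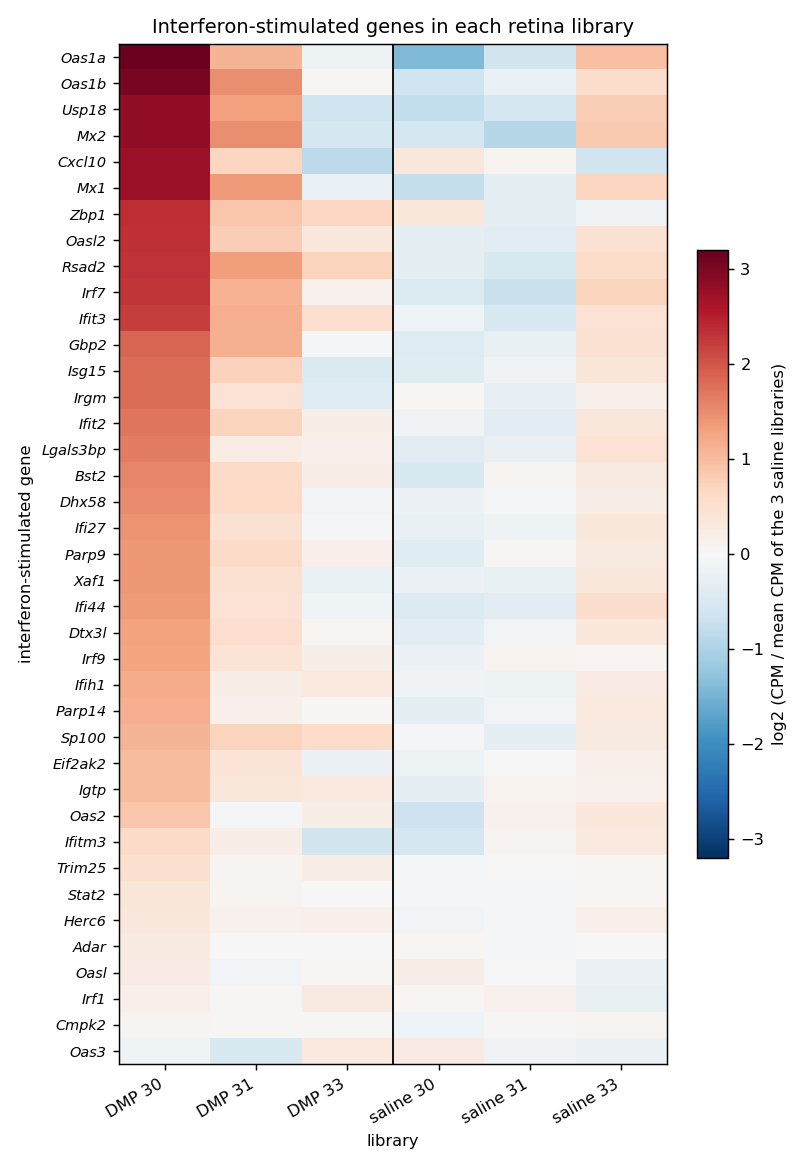
Rows are the 39 genes and columns the 6 libraries, DMP left of the line and saline right of it, and colour gives log2 of the CPM over the mean CPM of the 3 saline libraries. Red runs down the DMP 30 column and, paler, the DMP 31 column, while DMP 33 and the saline libraries are near 0, with saline 33 faintly red.

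**Figure D3:**
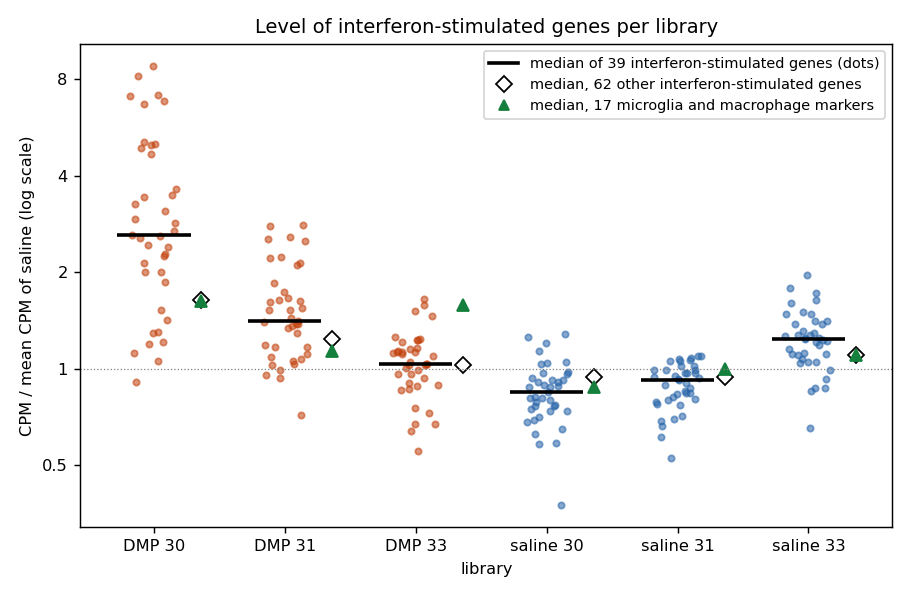
Dots are the 39 genes in each library as CPM over the saline mean on a log scale, and bars are their medians. Diamonds give the median of 62 other interferon-stimulated genes and triangles that of 17 microglia and macrophage markers. The median of the 39 genes is 2.62 in DMP 30, 1.41 in DMP 31 and 1.03 in DMP 33, where the triangle stands at 1.59.

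In the test of DMP against saline, 0 of the 39 genes passed a Benjamini-Hochberg adjusted p of 0.05 over all genes in edgeR, beside 0.0215% of all genes passing in either direction, 0.0162% upward and 0.00538% downward. The lowest adjusted p of a member was 0.235, for Sp100. At an unadjusted p under 0.05, 24 of 39 were higher in DMP and 0 lower, beside 2.08% and 2.56% of all genes. The fitted log2 fold change was above 0 for 38 of 39, beside 50% of all genes, and its median was 0.81 over the 39 genes and -0.00 over all genes. The groups did not overlap for 7 of 39, all higher in DMP, beside 4.42% of all genes higher without overlap. These were Irf9, Ifit3, Rsad2, Zbp1, Igtp, Trim25 and Sp100, and for the other 32 the groups overlapped. No member was lower without overlap, beside 4.88% of all genes. DESeq2 passed Ifit3 (adjusted p = 0.0434) and Sp100 (0.0157), beside 0.188% of all genes passing upward. It put 17 members higher at an unadjusted p under 0.05, beside 1.73% of all genes. Limma-voom passed 0, beside 0.0215% of all genes, and put 15 higher at an unadjusted p under 0.05, beside 2.19%. With the library number as a replicate block, edgeR passed 0, beside 0.0431% of all genes, and put 17 higher at an unadjusted p under 0.05, beside 2.19%.

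The size of the difference rested on DMP 30. Without it, the median log2 fold change of the 39 genes was 0.27, against -0.00 over all genes, 35 were above 0 and 4 below, and 5 were higher at an unadjusted p under 0.05, beside 1.62% of all genes. Those 5 were Rsad2, Sp100, Irf9, Ifit3 and Oas1b, and 0 passed the adjusted threshold in edgeR, beside 0.0317% of all genes passing upward. The groups then did not overlap for 7 of 39, beside 9.49% of all genes. Leaving out DMP 33 moved the values the other way. Without it, 31 were higher at an unadjusted p under 0.05, beside 1.73% of all genes, the median was 1.04, the groups did not overlap for 27 of 39, beside 8.76% of all genes, and Oas1b (log2 fold change 2.46, edgeR adjusted p = 0.0382) and Rsad2 (1.91, adjusted p = 0.0499) passed, beside 0.0474% of all genes passing upward. Without saline 33, the groups did not overlap for 25 of 39, beside 13% of all genes, and 0 passed. Without saline 30, 9 members were higher at an unadjusted p under 0.05, beside 1.7% of all genes, and without saline 31, 10 were, beside 1.85%. On the FPKM of the authors, limma put 5 members higher at an unadjusted p under 0.05 with 1 added before the logarithm, beside 2.1% of all genes, and 5 with 0.1 added, beside 2.11%.

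**Figure D4:**
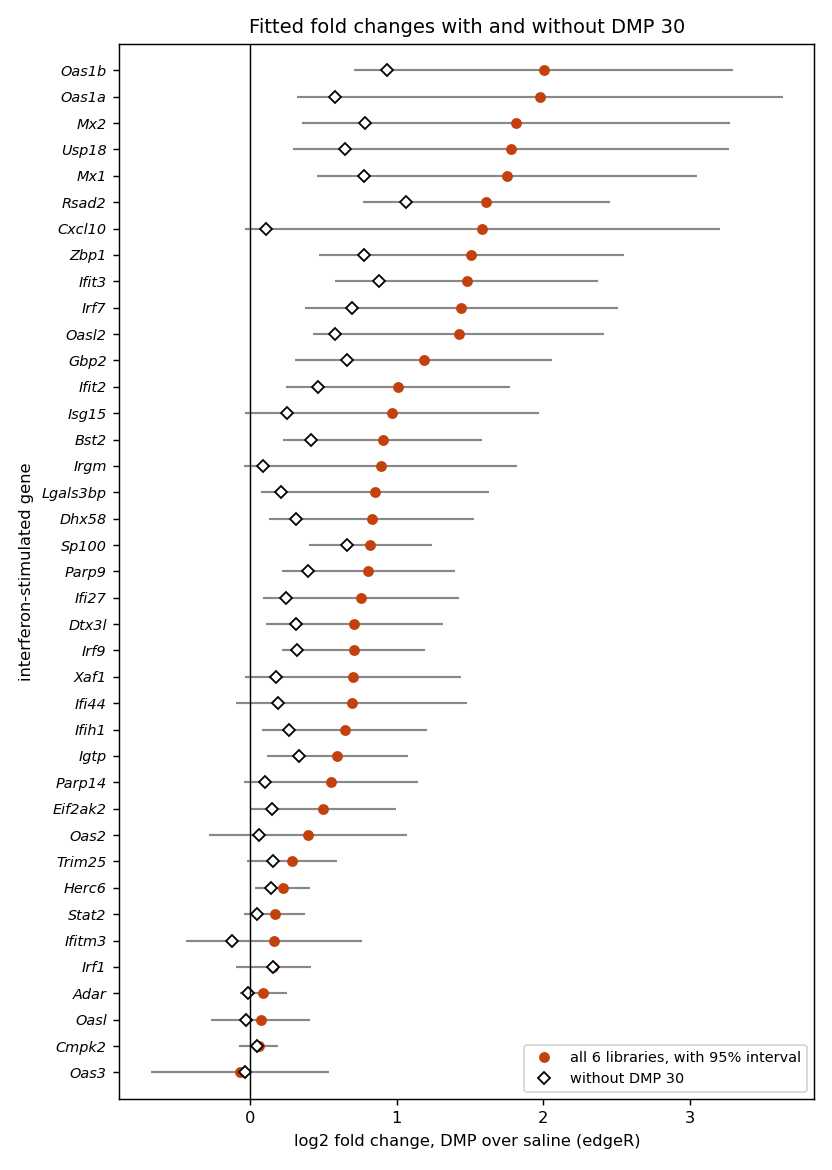
Filled points are edgeR log2 fold changes, DMP over saline, of the 39 genes with 95% intervals from all 6 libraries, and open diamonds are the values without DMP 30. For nearly every gene above 0.3 the diamond lies left of the point, and for Cxcl10, Irgm and Parp14 it lies near 0.

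Among the transcription factors, Irf9 and Irf7 were higher in DMP while Stat2 and Irf1 were close to saline. Irf7, which drives production of type I interferon and is itself induced by it, lies on chromosome 1 from 196367380 to 196370943 of mRatBN7.2 and was at 22.5, 9.83 and 5.02 CPM in DMP 30, 31 and 33, against 3.39, 2.81 and 7.54 CPM in saline 30, 31 and 33. DMP 33 lay below saline 33, so the groups overlapped, with a log2 fold change of 1.44 (SE 0.484, edgeR adjusted p = 0.698) and of 0.70 without DMP 30. Irf9, the DNA-binding part of ISGF3 on chromosome 15 from 29095474 to 29101924, was at 45.9, 25.95 and 21.7 CPM in DMP, against 16.9, 20.5 and 19.8 CPM in saline. All 3 DMP libraries lay above saline, although DMP 33 was only just above saline 31, and the values gave a log2 fold change of 0.71 (SE 0.221, edgeR adjusted p = 0.598) and of 0.32 without DMP 30. Stat2, its partner in ISGF3, was at 53.9, 43.8 and 41.4 CPM in DMP and 40.3, 40.02 and 43.4 CPM in saline, with DMP 33 inside the saline range. Its log2 fold change was 0.17, or 0.05 without DMP 30, with all libraries giving a 95% interval of -0.04 to 0.37. Irf1, a factor induced mainly by type II interferon, averaged 14.5 ± 1.2 CPM in DMP and 12.96 ± 1.71 CPM in saline (mean ± SD, n = 3 each).

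Rsad2 and Ifit3 had the smallest p of the members after Sp100. Rsad2 encodes viperin, which makes a nucleotide that ends viral RNA chains, and lies on chromosome 6 from 43046514 to 43059737 of mRatBN7.2. It was at 14.7, 7.51 and 4.88 CPM in DMP 30, 31 and 33, against 2.36, 2.07 and 4.44 CPM in saline 30, 31 and 33. Every DMP library was above every saline library, and saline 33 was about level with DMP 33, with a log2 fold change of 1.61 (SE 0.383, edgeR adjusted p = 0.253) and of 1.07 without DMP 30, the largest of the 39 in that fit. Its neighbour Cmpk2, a mitochondrial nucleotide kinase transcribed in the opposite direction from 43073706 on the same chromosome, was at 99.5, 97.2 and 96.8 CPM in DMP and 85.2, 95.9 and 101 CPM in saline. These values did not follow those of Rsad2, and the 95% interval of the log2 fold change of Cmpk2 was -0.08 to 0.19. Ifit3, on chromosome 1 from 232114166 to 232119311, binds Ifit partners that hold foreign RNA and was at 4.76, 2.27 and 1.48 CPM in DMP, against 0.925, 0.727 and 1.4 CPM in saline. The groups did not overlap, with a log2 fold change of 1.48 (SE 0.406, edgeR adjusted p = 0.41) and of 0.88 without DMP 30. Ifit2, of the same family and cluster, was at 6.82, 3.41 and 2.36 CPM in DMP, against 1.93, 1.64 and 2.69 CPM in saline, where saline 33 exceeded DMP 33. The reads of Ifit2 and Ifit3 may be shared with Lipa, an antisense gene whose span in the authors' table covers both, since the use of strand in counting is not stated in the sources used. Spans also overlap on opposite strands between Mx2 and Tmprss2, Eif2ak2 and LOC120103477, Oasl2 and LOC120096007, and Xaf1 and LOC102548703, and on the same strand between Xaf1 and Fbxo39.

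**Figure D5:**
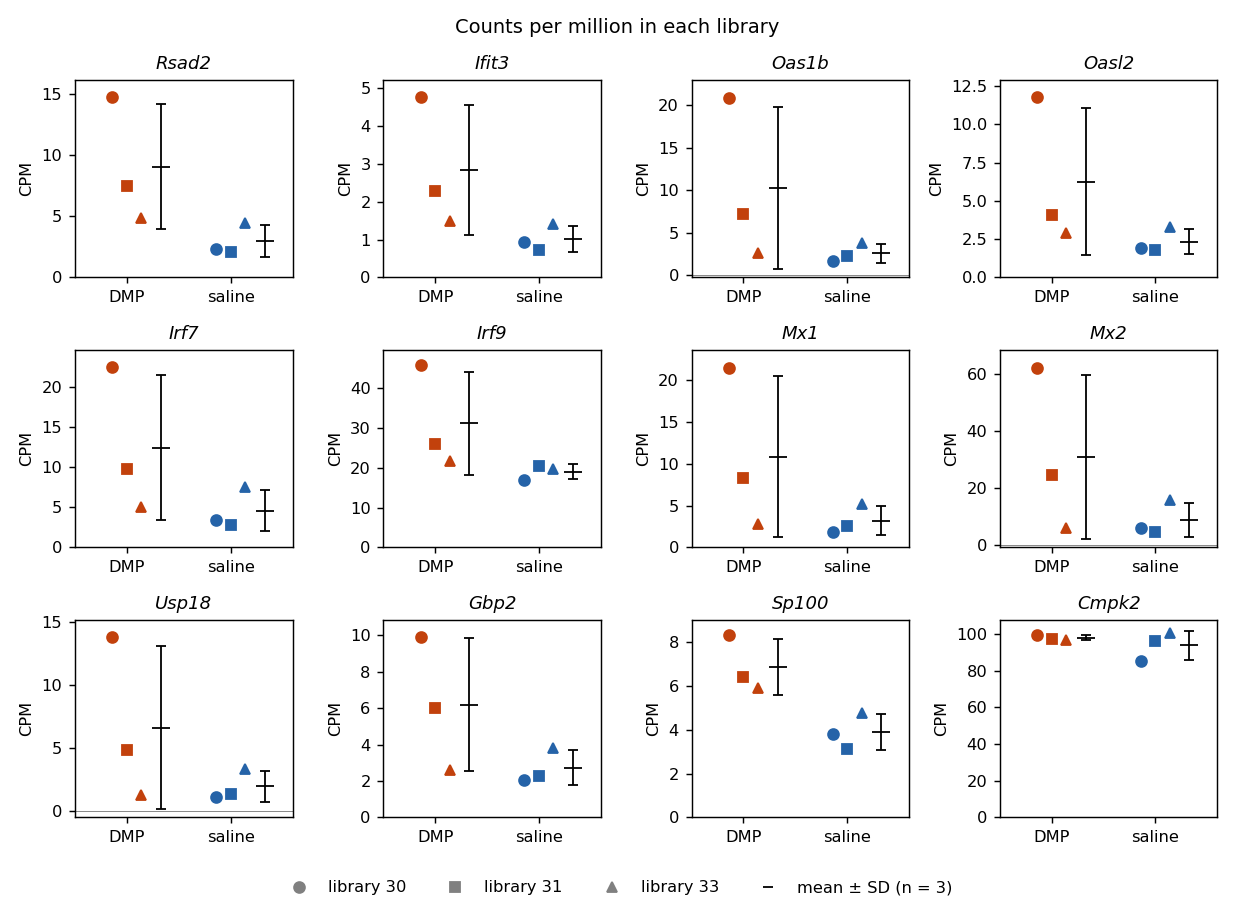
Each panel gives the CPM of a gene in the 3 DMP libraries on the left and the 3 saline libraries on the right, with the marker shape showing the library number and a bar for the mean ± SD (n = 3). In all panels but Cmpk2 the circle of DMP 30 is the highest point and the triangle of DMP 33 the lowest DMP point.

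In the oligoadenylate synthetase family, active enzymes sense double-stranded RNA and make the 2-5A signal for RNase L. The genes of this family split into some that were several times higher in DMP 30 and others that were not. Oas1b, on chromosome 12 from 35724561 to 35735271, had the largest fitted difference of the 39, at 20.9, 7.16 and 2.64 CPM in DMP 30, 31 and 33, against 1.65, 2.22 and 3.79 CPM in saline 30, 31 and 33. DMP 30 was 8.19 times the saline mean and DMP 33 lay between saline libraries, with a log2 fold change of 2.00 (SE 0.586, edgeR adjusted p = 0.494) and of 0.94 without DMP 30. Oas1a was at 9.68, 2.32 and 0.977 CPM in DMP, against 0.413, 0.727 and 2.15 CPM in saline. Here saline 33 was several times saline 30, and DMP 33 was below saline 33. Oas1a and Oas1b are close copies on chromosome 12, so the split of reads between them is uncertain. Oasl2, a synthetase-like gene, was at 11.8, 4.06 and 2.93 CPM in DMP, against 1.91, 1.81 and 3.29 CPM in saline, with a log2 fold change of 1.42 (SE 0.45, edgeR adjusted p = 0.616) and of 0.58 without DMP 30. Oas2 averaged 2.73 ± 0.996 CPM in DMP and 2.07 ± 0.691 CPM in saline (mean ± SD, n = 3 each). Oas3 and Oasl showed no such pattern, as their 95% intervals of log2 fold change ran from -0.67 to 0.54 and from -0.26 to 0.41. Of the 6 genes of this family, 3 were higher at an unadjusted p under 0.05, beside 2.08% of all genes.

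Sensors of foreign nucleic acid were higher in DMP 30 than in any saline library for all 5 listed, though by little for Adar. Zbp1, a sensor of Z-form RNA and DNA that can start necroptosis, was at 2.33, 0.842 and 0.723 CPM in DMP, against 0.571, 0.373 and 0.423 CPM in saline. Its groups did not overlap at counts of 122, 40 and 37 in DMP and 29, 20 and 22 in saline, with a log2 fold change of 1.51 (SE 0.472, edgeR adjusted p = 0.598) and of 0.78 without DMP 30. Dhx58, the helicase LGP2 that tunes RNA sensing, was at 11.5, 6.23 and 3.77 CPM in DMP, against 3.52, 3.91 and 4.63 CPM in saline. Ifih1, the double-stranded RNA sensor MDA5, was at 6.78, 3.47 and 3.69 CPM in DMP, against 2.74, 2.65 and 3.54 CPM in saline. DMP 31 was above every saline library for Dhx58 and within the saline range for Ifih1. The log2 fold changes were 0.83 for Dhx58 and 0.65 for Ifih1, and 0.31 and 0.27 without DMP 30. Eif2ak2, the kinase PKR that halts translation, averaged 28.2 ± 11.3 CPM in DMP and 19.97 ± 2.22 CPM in saline (mean ± SD, n = 3 each). Adar, which edits adenosine in double-stranded RNA, averaged 154 ± 18.3 CPM in DMP and 144 ± 4.57 CPM in saline (mean ± SD, n = 3 each).

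The interferon-induced GTPases varied widely between libraries, and 4 of 5 were higher at an unadjusted p under 0.05, beside 2.08% of all genes. Mx2, a dynamin-like GTPase of antiviral defence on chromosome 11 from 36905698 to 36936308, was at 62.2, 24.4 and 5.92 CPM in DMP 30, 31 and 33, against 5.98, 4.62 and 15.7 CPM in saline 30, 31 and 33. DMP 30 was 7.1 times and DMP 31 2.78 times the saline mean, while DMP 33 was 0.675 times it and saline 33 stood well above the other saline libraries. Mx1, its relative on the same chromosome, was at 21.5, 8.27 and 2.75 CPM in DMP, against 1.89, 2.57 and 5.17 CPM in saline. The log2 fold changes were 1.82 for Mx2 (SE 0.662, edgeR adjusted p = 0.805) and 1.75 for Mx1 (SE 0.588, edgeR adjusted p = 0.698). Without DMP 30 they were 0.79 and 0.78. Gbp2, a guanylate-binding protein induced by interferon gamma, was at 9.93, 6.02 and 2.62 CPM in DMP, against 2.05, 2.29 and 3.83 CPM in saline, with DMP 33 within the saline range. Igtp and Irgm belong to the immunity-related GTPases, which in mice act on vacuoles that hold pathogens. Igtp averaged 4.42 ± 1.25 CPM in DMP and 2.93 ± 0.473 CPM in saline (mean ± SD, n = 3 each) without overlap between groups. Irgm averaged 5.38 ± 4.06 CPM in DMP and 2.9 ± 0.429 CPM in saline (mean ± SD, n = 3 each), and DMP 33 was its lowest library.

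In the ISG15 system, Isg15 and Usp18 followed the common order while Herc6 and Trim25 varied less. Isg15, a ubiquitin-like protein joined to new proteins, was at 4.76, 2.27 and 0.996 CPM in DMP, against 1.04, 1.27 and 1.79 CPM in saline. Usp18, which removes Isg15 and restrains the interferon receptor, was at 13.8, 4.82 and 1.23 CPM in DMP, against 1.12, 1.32 and 3.33 CPM in saline. For both, saline 33 exceeded DMP 33, and DMP 30 was 3.48 times the saline mean for Isg15 and 7.18 times for Usp18. Herc6, a ligase for Isg15 in mice, was at 63.9, 53.95 and 55.2 CPM in DMP and 46.1, 47.03 and 54.98 CPM in saline. Its log2 fold change was 0.22 (SE 0.0852, edgeR adjusted p = 0.859), or 0.14 without DMP 30, and DMP 31 and DMP 33 were close to saline 33. Trim25, a ubiquitin ligase of RNA sensing, averaged 7.38 ± 1.11 CPM in DMP and 6.05 ± 0.267 CPM in saline (mean ± SD, n = 3 each) without overlap between groups.

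Parp9, Dtx3l and Parp14 neighbour each other on chromosome 11 and were ordered alike. Parp9 and Dtx3l form a complex that modifies histones and viral proteins, and their genes overlap at their starts on opposite strands, so shared reads cannot be set aside. Parp9 was at 24.1, 14.04 and 10.2 CPM in DMP, against 7.05, 9.39 and 11.2 CPM in saline. Dtx3l was at 14.1, 8.38 and 6.1 CPM in DMP, against 4.59, 5.48 and 7.39 CPM in saline. In both, DMP 30 and DMP 31 were above and DMP 33 within the saline range, with log2 fold changes of 0.81 for Parp9 and 0.71 for Dtx3l, and of 0.40 and 0.31 without DMP 30. Parp14, a mono-ADP-ribosyltransferase, was at 18.1, 8.99 and 8.32 CPM in DMP, against 6.56, 7.57 and 10.1 CPM in saline, and only its DMP 30 value lay above all saline libraries.

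Of the membrane proteins that restrict viruses, Bst2 and Ifi27 were higher at an unadjusted p under 0.05, beside 2.08% of all genes. Ifitm3 was not. Bst2, the tetherin that holds virus particles at the cell surface, was at 16.5, 8.55 and 6.47 CPM in DMP, against 3.98, 5.95 and 6.9 CPM in saline. Saline 33 lay just above DMP 33, with a log2 fold change of 0.90 (SE 0.308, edgeR adjusted p = 0.709) and of 0.42 without DMP 30. Ifi27, a small hydrophobic protein, was at 23.4, 12.2 and 8.38 CPM in DMP, against 7.34, 7.81 and 10.9 CPM in saline. Ifitm3, which blocks fusion of virus in endosomes, was at 14.6, 11.2 and 6.43 CPM in DMP and 6.63, 10.2 and 11.9 CPM in saline. Its groups were mixed, DMP 33 was the lowest of all libraries, and the log2 fold change of 0.16 had a 95% interval of -0.43 to 0.76 and was -0.12 without DMP 30.

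Sp100, a protein of nuclear bodies, had the smallest p of the members. It lies on chromosome 9 from 86310990 to 86377036 of mRatBN7.2 and was at 8.35, 6.42 and 5.9 CPM in DMP 30, 31 and 33, against 3.8, 3.13 and 4.77 CPM in saline 30, 31 and 33. Each DMP library lay above each saline library by at least 1 CPM, with a log2 fold change of 0.82 (SE 0.19, edgeR adjusted p = 0.235) and of 0.66 without DMP 30. Lgals3bp, a secreted glycoprotein, was at 42.7, 16.3 and 15.5 CPM in DMP, against 10.6, 11.6 and 19.1 CPM in saline, and saline 33 exceeded DMP 31 and DMP 33. Cxcl10, a chemokine that draws T cells, was at counts of 126, 27 and 10 in DMP, against 23, 20 and 12 in saline. DMP 30 alone was clearly higher and DMP 33 was the lowest, and the log2 fold change of 1.58 became 0.11 without DMP 30. Xaf1, which binds an inhibitor of apoptosis, averaged 5.41 ± 2.97 CPM in DMP and 3.33 ± 0.785 CPM in saline (mean ± SD, n = 3 each), and Ifi44, induced by type I interferon, 7.57 ± 4.01 CPM in DMP and 4.68 ± 1.98 CPM in saline (mean ± SD, n = 3 each).

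Per length, in the FPKM of the authors, the most abundant members were Adar, Cmpk2, Lgals3bp and Ifi27, and their order differed between libraries. Lgals3bp was at 46.8 ± 28.6 FPKM in DMP and 26.2 ± 9.01 in saline (SD, n = 3 each). It was ahead of Adar and Cmpk2 in DMP 30 and behind both in DMP 31, DMP 33, saline 30 and saline 31. In saline 33 it was at 36.5 FPKM, ahead of Adar at 33.9 and about level with Cmpk2 at 36.6. Adar was at 35.98 ± 3.88 FPKM in DMP and 33.9 ± 0.985 in saline, and Cmpk2 at 35.1 ± 0.165 in DMP and 33.8 ± 3.07 in saline. Ifi27 was at 29.2 ± 15.2 in DMP and 17.4 ± 4 in saline. In saline, Adar and Cmpk2 did not differ beyond their spread, nor did Lgals3bp and Ifi27. FPKM levels of 5 members (Irf7, Isg15, Ifitm3, Xaf1 and Cxcl10) imply a transcript longer than the span of the gene in the same table, so they were left out of this order. Among the others, implied lengths ran from 500 bases for Ifi27 and 529 for Lgals3bp to 11951 for Rsad2. In CPM, the saline means of Lgals3bp (13.8) and Ifi27 (8.67) lay below those of Herc6 (49.4) and Stat2 (41.2). The order by FPKM therefore depends on the lengths behind it, which were not checked.

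Further interferon-stimulated genes were also at their highest level in DMP 30, by less. Of 66 further interferon-stimulated genes, 62 could be tested, and 0 passed the adjusted threshold in edgeR. At an unadjusted p under 0.05, 24 were higher and 0 lower, beside 2.08% and 2.56% of all genes. Their median log2 fold change was 0.39. Without DMP 30 it was 0.19, with 7 higher, beside 1.62% of all genes. Their median level was 1.64, 1.24 and 1.03 times the saline mean in DMP 30, 31 and 33, and 0.945, 0.941 and 1.11 times in saline 30, 31 and 33. The 4 of smallest p were LOC685067, which RefSeq names Gbp7, Slfn13, Gbp5 and Slfn2. Gbp5, a guanylate-binding protein, was at 2.9, 1.43 and 1.27 CPM in DMP, against 0.512, 0.596 and 0.962 CPM in saline, without overlap.

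Transcripts of the interferons themselves were at or near 0, apart from Ifne, which had low and uneven counts. Of 11 ligand genes 10 were in the table, and 7 of them (Ifna2, Ifna4, Ifna5, Ifnb1, Ifng, Ifnl1 and Ifnl3) had 0 counts in all 6 libraries. Ifna1 and Ifnk had at most 6 counts in any library. LOC108350996, which RefSeq names Ifne, had counts of 63, 9 and 0 in DMP 30, 31 and 33 and of 7, 56 and 42 in saline 30, 31 and 33. Its log2 fold change was -0.51 (edgeR unadjusted p = 0.625), and -2.81 without DMP 30 (edgeR unadjusted p = 0.026). Its counts varied widely within both groups. A transcript that few cells make might not be detectable at this depth.

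Receptors and their kinases were present, and no difference was detected. Of 9 tested, 0 were higher and 0 lower at an unadjusted p under 0.05, beside 2.08% and 2.56% of all genes. Their median log2 fold change was 0.06. Ifnar1, a chain of the type I receptor, was at 86.8, 88.3 and 87.9 CPM in DMP, against 87.2, 86.2 and 86.6 CPM in saline. Among further signalling factors, 0 passed the adjusted threshold in edgeR, and at an unadjusted p under 0.05 Irf8 and Irf5 were higher and Batf2 was lower. Irf8, a factor of myeloid cells, was at 10.4, 4.34 and 7.64 CPM in DMP, against 2.82, 4.32 and 3.65 CPM in saline.

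Of 19 tested genes of nucleic acid sensing, 1 was higher (Sting1) and 1 lower (Ikbke) at an unadjusted p under 0.05. Over all genes, 2.08% were higher and 2.56% lower at that threshold. In edgeR 0 of the 19 passed the adjusted threshold, and their median log2 fold change was 0.05. Ddx58, the RNA sensor RIG-I and also an induced gene, was at 12.2, 4.53 and 3.56 CPM in DMP, against 3.7, 3.97 and 4.17 CPM in saline, high in DMP 30 alone. Sting1, the adaptor of cytosolic DNA sensing, was at 1.36, 1.18 and 1.76 CPM in DMP, against 0.669, 0.746 and 1.12 CPM in saline, without overlap. Ikbke, a kinase that activates Irf3, was at 2.1, 2.17 and 1.99 CPM in DMP, against 2.66, 3.3 and 3.58 CPM in saline, with every DMP library below saline. Mavs, the adaptor of RNA sensing, was at 35.6, 37.2 and 37.2 CPM in DMP, against 36.3, 36.8 and 33.8 CPM in saline.

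Markers of microglia were also higher in DMP at an unadjusted p, and in bulk tissue more cells of a type and more RNA per cell cannot be told apart. Of 17 microglia and macrophage markers, 9 were higher at an unadjusted p under 0.05 and 0 lower, beside 2.08% and 2.56% of all genes. In edgeR 0 of the 17 passed the adjusted threshold, and their median log2 fold change was 0.48 (0.45 without DMP 30). Their summed level was 271, 207 and 262 CPM in DMP 30, 31 and 33, against 156, 173 and 198 CPM in saline 30, 31 and 33. DMP 33, where the interferon-stimulated genes were near saline, was the second highest library for these markers, and DMP 31 the lowest of the DMP group. Of the 9, the 4 of smallest p were Ctss, Cd68, Aif1 and C1qc, each without overlap. Without DMP 30, 8 of the 17 were higher at an unadjusted p under 0.05, beside 1.62% of all genes. Cd68, a lysosomal protein of macrophages, was at 4.55, 3.58 and 5.57 CPM in DMP, against 1.38, 2.16 and 2.37 CPM in saline. Among markers that define resident microglia, the groups overlapped for P2ry12 and Tmem119. P2ry12 was at 6.02, 4.46 and 6.7 CPM in DMP, against 4.76, 4.62 and 4.62 CPM in saline, and Tmem119 at 2.98, 3.22 and 4.49 CPM in DMP, against 2.95, 2.42 and 3.12 CPM in saline. Their part in the interferon-stimulated difference was not tested.

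Blood cell markers were sparse. Of 19 lymphocyte markers 4 could be tested, with 0 higher at an unadjusted p under 0.05, beside 2.08% of all genes. The 19 summed to 5.83 to 7.41 CPM in DMP and 3.88 to 5.54 CPM in saline. Cd8b and Ms4a1 were at 0 in all libraries. Of 12 monocyte and neutrophil markers 5 could be tested. Of these, 2 (Plac8 and Csf3r) were higher at an unadjusted p under 0.05, beside 2.08% of all genes. The list summed to 27.9 to 43.1 CPM in DMP and 21.4 to 28.3 CPM in saline. S100a8, S100a9, Elane and Camp were at 0. Of 6 plasmacytoid dendritic cell markers 4 could be tested. At that threshold 0 were higher and 1 (Ccr9) lower, beside 2.08% and 2.56% of all genes. The 6 summed to 552 to 604 CPM in DMP and 545 to 602 CPM in saline. Nearly all of it was Pacsin1, which neurons also express. Siglech, one of the listed markers, had counts of 22, 4 and 6 in DMP 30, 31 and 33 and of 0 in each saline library. These counts are at the edge of what can be measured here and are not shown to come from such cells. Of 10 endothelial and mural markers tested, 0 were higher and 0 lower at an unadjusted p under 0.05, beside 2.08% and 2.56% of all genes. They summed to 573 to 648 CPM in DMP and 579.6 to 608 CPM in saline. The part of these lists in the result was not tested.

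A few of the pigment epithelium markers varied between libraries as most of the interferon-stimulated genes did, and the others did not. The 12 markers tested summed to 583 to 642 CPM in DMP and 595 to 655 CPM in saline, of which Otx2, also a gene of photoreceptors and bipolar cells, made up most. At an unadjusted p under 0.05, 0 were higher and 4 lower, beside 2.08% and 2.56% of all genes. The 4 were the pigment genes Tyr, Tyrp1, Pmel and Mlana. Without DMP 30, 0 were higher and 7 lower, with Dct, Ttr and Rgr added, and the median log2 fold change was -0.44, against -0.06 with all libraries. Rpe65, the visual cycle isomerase, was at 15.2, 4.86 and 6.78 CPM in DMP, against 6.08, 4.75 and 9.1 CPM in saline. Rgr, an opsin of the same cells, was at 14.4, 6.17 and 5 CPM in DMP, against 6.22, 6.95 and 9.83 CPM in saline. For both and for Ttr, DMP 30 was the highest of the 6 libraries and saline 33 the highest of saline. Most of the interferon-stimulated genes had this order as well, while no other marker of the 12 had it. Tyrp1 was at 8.35, 7.83 and 6.51 CPM in DMP, against 41.6, 13.9 and 17.6 CPM in saline, with every DMP library below saline and saline 30 the highest. The part of these markers in the interferon-stimulated result was not tested.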

How the data were processed

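RNA of 6 rat retina libraries was sequenced after selection on oligo(dT) beads with strand kept by dUTP, per the labels' protocols. Reads were trimmed with cutadapt 1.9, and the genome build is mRatBN7.2, both named in the submitters' processing notes. The aligner and counter are not stated there. The deposited table holds whole numbers treated as estimated counts (expected counts), because low values piled up at 4 (673 to 741 genes per library, against 301 to 325 at 3), so genes with low counts are less certain than their counts imply, and 1 fragment may be worth about 4 counts. FPKM were computed by the authors.

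Genes were kept with edgeR's filterByExpr (minimum count 10, total 15), which left 18571. TMM-scaled counts were tested with the quasi-likelihood F-test of edgeR 4.0.16 (R 4.3.3), two-sided, group as the only term, Benjamini-Hochberg over all genes, threshold 0.05. Standard errors are the log2 fold change over the square root of F, and 95% intervals use the t distribution. The procedure was tested on simulated counts. Alternatives used DESeq2 1.42.0, limma 3.58.1, other scalings and filters, the FPKM table, a replicate block and each library left out. Some listed genes are not reported here. Members and lists were chosen with earlier results of these data known. Of 249 listed symbols 248 matched, 6 through a gene ID or older symbol. Per-library values are given for up to 3 members of smallest p in each role and for members called in any fit. Genes of other lists are named by smallest p, except Glul, Ifnar1, Ddx58, Mavs, P2ry12, Tmem119, Siglech, Rpe65, Rgr and genes at 0, which were chosen after their values were seen. Promoters came from RefSeq tables of GRCr8. Intervals cover the spread between libraries, and PCR duplicates could not be told apart.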

Additional observations from a re-analysis of the deposited data

How the results depend on the processing

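The count of members past the adjusted threshold, 0 with all 6 libraries in edgeR, was 2 with DESeq2 and 0 to 2 with a library left out. It was 0 under the other scalings and filters, with limma-voom, with either FPKM fit and with counts divided by 4, a setting chosen after seeing the data. The median log2 fold change of 0.81 was 0.38 on the log2(FPKM + 1) scale, where the pseudocount shrinks low values, and 0.27 to 1.04 with a library left out, the lowest without DMP 30 and the highest without DMP 33. The number of members without overlap, 7, ran from 7 to 27 with a library left out. The count higher at an unadjusted p under 0.05, 24, was 15 with limma-voom, 17 with DESeq2, 5 in each FPKM fit and 5 to 31 with a library left out (9 without saline 30 and 10 without saline 31). With a library left out, log2 fold changes changed sign for Adar (-0.0115 to 0.14), Cmpk2 (-0.00867 to 0.11), Ifitm3 (-0.12 to 0.43), Oas3 (-0.30 to 0.10) and Oasl (-0.0248 to 0.17), all with intervals across 0. Over all genes, 4 passed in edgeR, 12 with mean CPM above 1, 92 with DESeq2, 35 with counts divided by 4, 0 and 3 in the FPKM fits and 0 to 81 with a library left out, the most without DMP 33. The cause of these shifts was not tested.

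In the fit with the label number as a replicate block, 0 members passed, 17 were higher at an unadjusted p under 0.05 and the median was 0.66. Over all genes 45 passed, against 4 without the block. The numbers are not shown to pair the libraries. Deviations of libraries with the same number correlated over all genes at 0.066, 0.035 and 0.028. Those of libraries with different numbers correlated at -0.079 to 0.046, so the ranges overlapped and all values were small.

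Total counts limit the precision for Cxcl10, Zbp1 and Oas3, whose highest counts in any library were 126, 122 and 89.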

Other observations

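Besides the 4 members, the RefSeq windows of Irgm2 and Ifitm7 held ISRE and GAS cores that started 11 bases apart. Irgm2, another immunity-related GTPase, was at 20.5, 9.05 and 7.48 CPM in DMP, against 6.2, 8.24 and 9.04 CPM in saline, with a log2 fold change of 0.66 (SE 0.313, edgeR adjusted p = 1). DMP 30 was the highest library and DMP 33 lay within the saline range. Ifitm7 had 0 counts in all 6 libraries. Both were named after this spacing had been counted.

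Over the 39 members, the deviation of DMP 30 from the DMP mean and that of saline 33 from the saline mean, in log2 CPM, correlated with Pearson r = 0.598, a description across genes that are not independent and that share a library within each deviation. For DMP 33 and saline 33 the value was -0.637. Over all 18571 genes the values were -0.067 and 0.028.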
